A study of Caenorhabditis elegans with 6 samples.

Results

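The secreted hedgehog-related genes of Caenorhabditis elegans were followed in whole hermaphrodites at the L4 stage. Members were taken by name, as the genes of the count table whose symbol begins with grl, grd, wrt or hog and a number. Earlier results of these data were known when they were chosen. There were 58 of them among 20189 protein-coding genes: 31 ground-like (grl), 16 groundhog (grd) and 10 warthog (wrt) genes and hog-1. RNA sequencing covered 6 samples, 3 from animals on plates with cycloheximide (CHX, 500 µg/ml) and 3 from animals on plates without it (no_CHX). All animals, in both groups, carried rpl-36A(P55Q), a mutation in a gene of the large ribosomal subunit, over the balancer chromosome mIn1, and grew from synchronized eggs at 23 °C. CHX animals were collected after 3 days and no_CHX animals after 2 days, both at L4, so the drug and the age of the animals cannot be told apart. Cycloheximide blocks translation elongation, and the series title speaks of ribosomes that resist it. The labels do not say whether replicates were separate cultures, so p-values here rest on a spread between samples that may be technical only.

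Most hedgehog-related proteins are secreted proteins with a short cysteine-rich domain, called Wart, Ground or Ground-like, which gives the warthog, groundhog and ground-like families their names. Some of them, among them wrt-1, wrt-4, wrt-6, wrt-7, wrt-8, grd-1, grd-2, grd-11 and hog-1, also encode the self-cleaving Hog domain that hedgehog proteins of other animals carry at their carboxy terminus. The worm has no clear hedgehog and no smoothened, but it keeps patched and a large set of patched-related membrane proteins. Many of the genes are expressed in the epidermis, in glia or in the cells that line openings of the body, and transcripts of many rise and fall with each larval molt. Several of the proteins have been found in the cuticle or in the temporary matrix under it.

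Libraries held between 313767 and 414781 counts over coding sequence, so that 3 counts, the floor used here, stood for 7.23 to 9.56 CPM (counts per 10 to the power 6) of a library's total. After a low-count filter, 5641 genes were tested with edgeR's quasi-likelihood test, adjusted by the Benjamini-Hochberg method over all of them, and a gene was called at an adjusted p under 0.05. By this rule 25.2% of tested genes were called, 10.3% higher on CHX and 14.9% lower. The median log2 fold change of all tested genes was 0.02. Levels below are CPM of a library's counts in tested genes, scaled by its TMM factor (a correction for composition), and n is 3 per group throughout. Fold changes are CHX over no_CHX on the log2 scale of the fitted model.

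Of the 58 members, 36 had a count in any sample, 20 had a count in all 6 samples and 13 were tested. The families differed in how many were seen. A count was found for 15 of 31 ground-like, 11 of 16 groundhog and 9 of 10 warthog genes, and for hog-1. Median coding lengths rose in the same order, at 636 bases for ground-like, 855 for groundhog and 1447.5 for warthog genes. The part of length in detection was not tested. Another 13 members had between 1 and 9 counts over the 6 samples, and 22 had 0. Members at 0 made up 37.9%, and 31.2% of all the genes counted were at 0. The genes at 0 were grl-3, grl-6, grl-8, grl-9, grl-11, grl-14, grl-19, grl-20, grl-23, grl-24, grl-25, grl-26, grl-28, grl-29, grl-30, grl-31, grd-4, grd-7, grd-8, grd-9, grd-15 and wrt-7. For these a level of up to 2.52 CPM over the pooled CHX libraries and 2.92 over the pooled no_CHX libraries is allowed, so low expression was not detectable at this depth. The median coding length was 631.5 bases for members at 0 and 846 bases for the 35 counted members with an annotated length.

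On CHX the hedgehog-related genes made up a smaller share of the sequenced RNA, and absolute amounts were not measured. The 58 genes together stood at 2094, 1833 and 2215 CPM in the 3 CHX samples, against 4589, 4732 and 4030 CPM in the no_CHX samples. The CHX samples therefore all lay below the no_CHX samples, and the ratio of the means was 0.46. In bulk samples, fewer cells of a type and less RNA per cell cannot be told apart. The sums were 0.204% ± 0.021 of all counts on CHX and 0.396% ± 0.0324 without it (SD, n = 3), a ratio of 0.514. grl-16 alone held 47.9% to 49.6% of member counts in CHX samples and 41.6% to 54.04% in no_CHX samples, and the ratio of the other 57 genes was 0.465. Of the 13 tested members 8 were called lower and 0 higher (DESeq2 also called 0 higher, and 1 member, grl-21, was above its no_CHX level at an unadjusted p under 0.05). Among all tested genes 14.9% were called lower and 10.3% higher. In 9 of the 13 every CHX sample lay below every no_CHX sample, as in 20.2% of all tested genes, and in 0 every CHX sample lay above, as in 19.5%. For grl-5, 1 of these 9, the separation rests on the TMM factors.

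The filter favours genes that are high in one group, so these counts need their makeup. Of the 13 tested members, 7 reached the filter's minimum in all 6 samples, and 6 of these were called lower. The share called lower among all genes that reach it in all 6 samples was not computed. The others were grl-5, grl-27, grd-2, wrt-4 and wrt-9, which reached it in every no_CHX sample but not in every CHX sample, and grl-21, which reached it in 2 CHX samples and 1 no_CHX sample. Of these, grl-5, grl-27, grd-2 and wrt-4 are among the members whose groups did not overlap, so the filter bears on that count too. With no filter, all 36 members with a count could be fitted. The same test then called 8 of them, all lower, against 9.7% of the 13894 genes in that fit called in either direction. Over all genes in that fit, 737 were called lower and 611 higher. In it, 25 members had a negative and 11 a positive log2 fold change. The 36 include 13 members with only 1 to 9 counts, and the split over all genes was not computed.

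**Figure D1:**
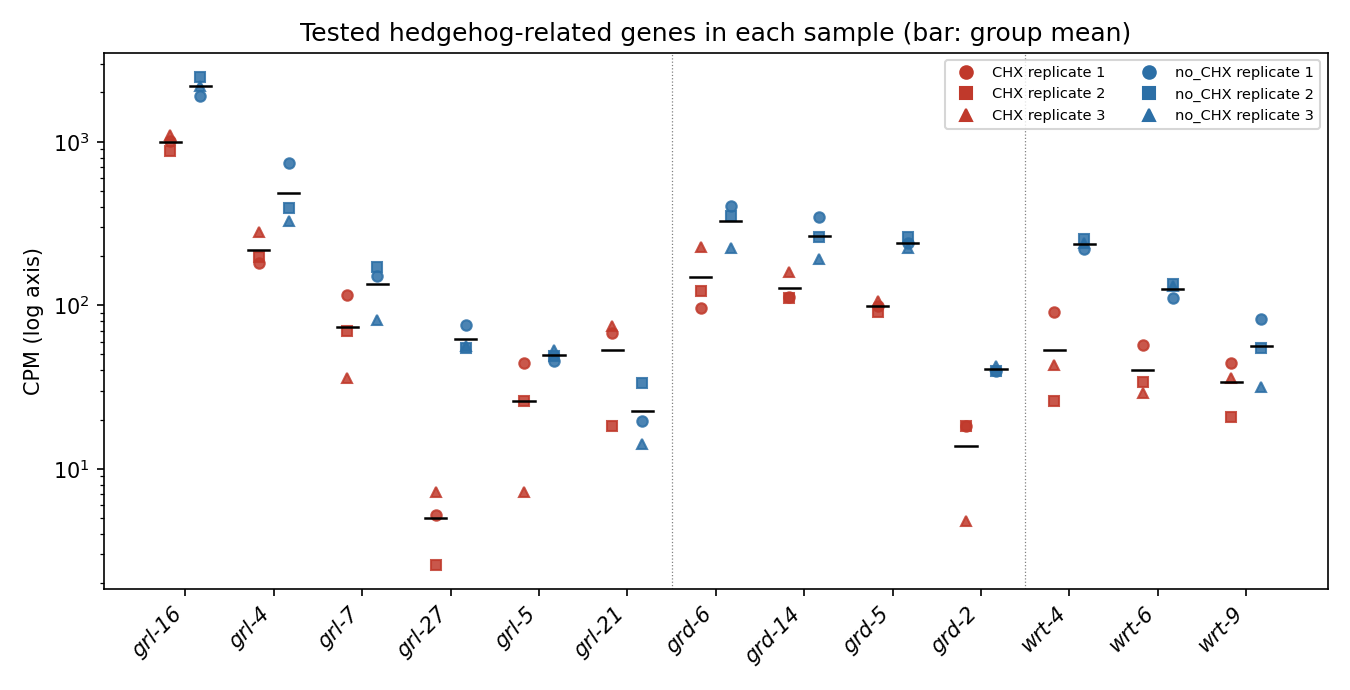
CPM (log axis) of the 13 tested members in each sample, CHX in red left of no_CHX in blue, with bars at group means and dotted lines between the ground-like, groundhog and warthog families. For 9 of the 13 genes the 3 CHX samples all lie below the 3 no_CHX samples; grl-7, grl-21, grd-6 and wrt-9 overlap.

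Ground-like genes held most of the members' summed level, much of it from grl-16. They summed to 1478, 1252 and 1518 CPM on CHX, against 3000, 3231 and 2779 CPM without it, a ratio of means of 0.472. Without grl-16 the means were 421 CPM on CHX and 816 CPM without it, a ratio of 0.515. Of 6 tested, 3 were called lower, grl-16, grl-4 and grl-27. The Ground-like proteins lack a Hog domain, and their median coding length of 636 bases was shorter than the 981 bases of all genes.

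The most abundant member was grl-16 (WBGene00001725), which lies on chromosome I from 572177 to 575120 in WBcel235 coordinates and has 5 exons. Its level was 1008, 879 and 1099 CPM in CHX samples, against 1908, 2474 and 2178 CPM in no_CHX samples. The groups did not overlap, and the gap between them was wider than the range within either group. By edgeR it fell 2.20-fold, a log2 fold change of -1.14 (SE 0.13) at an adjusted p = 1.54e-07.

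A level of 180, 197 and 279 CPM on CHX, against 738, 395 and 329 CPM without it, was found for grl-4 (WBGene00001713; chromosome IV, 7309838 to 7310760, 3 exons). Every CHX sample was below every no_CHX sample, with no_CHX replicate 1 far above the other 2 of its group. Its log2 fold change was -1.15 (SE 0.23, adjusted p = 4.88e-04), and it was -0.72 without no_CHX replicate 1 (adjusted p = 0.0118).

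The steepest fitted fall among the 13 tested members was that of grl-27 (WBGene00001736; chromosome V, 3575055 to 3575874, 4 exons). It had 2, 1 and 3 counts in CHX samples, against 23, 18 and 16 counts in no_CHX samples. Scaled to library size, the ratio of summed counts was 0.0813 (exact 95% counting interval 0.0286 to 0.188, which covers counting error only). By edgeR the log2 fold change was -3.53 (SE 0.61, adjusted p = 7.08e-05). All 3 CHX samples were at or under the floor of 3 counts, so the size of the fall is poorly known. The interval leaves out the spread between samples.

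Calls were not reached for grl-7, grl-5 and grl-21. The protein of grl-7 has been found in the temporary matrix at furrows of the forming cuticle. Its level was 115, 70.0 and 36.1 CPM on CHX, against 151, 171 and 81.3 CPM without it, with overlap between the groups (log2 fold change -0.88, SE 0.35, adjusted p = 0.0632). It passed with limma-voom, with a replicate block, without CHX replicate 1 (log2 fold change -1.35) and without no_CHX replicate 3 (-1.15). Its log2 fold change was nearer 0 without CHX replicate 3 (-0.53, adjusted p = 0.33) and without no_CHX replicate 2 (-0.68, adjusted p = 0.24). For grl-5 the values were 44.4, 25.9 and 7.22 CPM on CHX and 45.9, 49.0 and 53.0 CPM without it (adjusted p = 0.191). Its groups did not overlap on this scale, but CHX replicate 1 was close to the lowest no_CHX sample. The raw counts of these 2 samples were 17 and 14. By library totals alone CHX replicate 1 was the higher, so the separation rests on the TMM factors. The log2 fold change was -0.94, with -0.47 without CHX replicate 3 and -1.56 without CHX replicate 1. In both grl-5 and grl-7 the order within CHX was the same, with replicate 1 high and replicate 3 low.

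In the opposite direction lay grl-21 (WBGene00001730; chromosome IV, 10737474 to 10738189, 2 exons), which in worms has been linked to fat storage through the patched-related protein PTR-24. It stood at 67.9, 18.1 and 74.6 CPM in CHX samples, against 19.7, 33.7 and 14.1 CPM in no_CHX samples. CHX replicates 1 and 3 lay above every no_CHX sample, and CHX replicate 2 lay among them. The log2 fold change was 1.22 (SE 0.53, adjusted p = 0.0892). Without CHX replicate 2 the value was 1.64 and passed (adjusted p = 0.0199), and over all alternatives the adjusted p ran up to 0.346, without CHX replicate 3 (log2 fold change 0.93). The level of ptr-24 was 49.2 ± 9.84 CPM on CHX and 75.7 ± 19.3 CPM without it (SD, n = 3; adjusted p = 0.224).

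**Figure D2:**
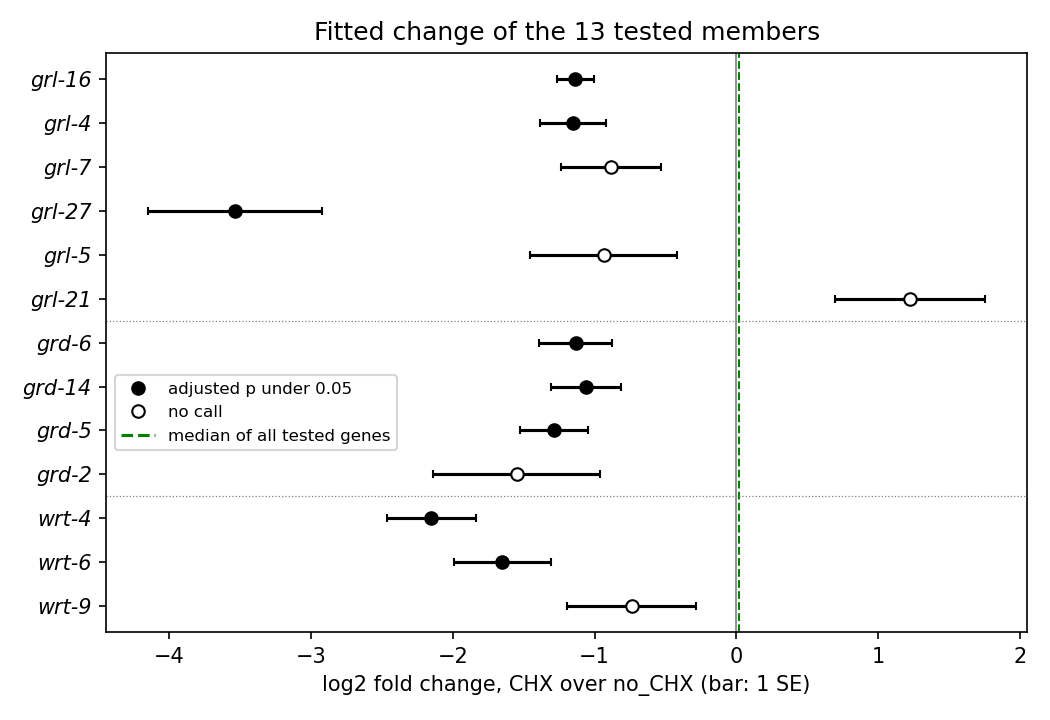
Log2 fold change, CHX over no_CHX, of each tested member with 1 SE, filled where the adjusted p is under 0.05, with a dashed line at the median of all tested genes (0.02). Of the 13, 12 lie left of 0, from -0.74 for wrt-9 to -3.53 for grl-27, and grl-21 lies at 1.22.

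Groundhog genes summed to 355, 438 and 553 CPM on CHX and to 1088, 974 and 756 CPM without it, with no overlap and a ratio of means of 0.478. Of 4 tested, 3 were called lower, grd-5, grd-6 and grd-14, and grd-2 missed the threshold. On CHX the sum was highest in replicate 3, and without CHX it was lowest in replicate 3.

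Among them grd-5 (WBGene00001694; chromosome V, 8619032 to 8619869) had close replicates and, with 2 exons and 306 coding bases, was among the shortest members. It stood at 99.2, 90.7 and 106 CPM in CHX samples, against 239, 260 and 223 CPM in no_CHX samples. The groups were far apart, with a log2 fold change of -1.29 (SE 0.24, adjusted p = 1.67e-04), a 2.44-fold fall.

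For grd-14 (WBGene00001703; chromosome X, 8499664 to 8501037, 3 exons) the values were 112, 111 and 159 CPM on CHX and 347, 260 and 191 CPM without it. The groups did not overlap, and CHX replicate 3 came nearest to no_CHX replicate 3. The log2 fold change was -1.06 (SE 0.24, adjusted p = 0.00171).

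In grd-6 (WBGene00001695; chromosome V, 9221917 to 9224354, 9 exons) the groups overlapped. It had 96.6, 122 and 226 CPM on CHX, against 403, 352 and 223 CPM without it, and the pair that met was CHX replicate 3 and no_CHX replicate 3. The gene was still called (log2 fold change -1.13, SE 0.26, adjusted p = 0.0015), and leaving out single libraries gave -0.89 to -1.56.

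The Hog-domain gene grd-2 (WBGene00001691; chromosome V, 20609794 to 20613929, 12 exons, 2838 coding bases) had 7, 7 and 2 counts in CHX samples and 12, 13 and 12 counts in no_CHX samples. Its ratio of summed counts was 0.334 (exact 95% counting interval 0.173 to 0.615) with no overlap between groups (log2 fold change -1.55, SE 0.59). The adjusted p = 0.0509 lay just above the threshold, and over the alternatives it stayed above it, from 0.0517 to 0.243.

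Warthog genes had the lowest ratio of the families, 0.359, at 261, 135 and 144 CPM on CHX, against 485, 527 and 495 CPM without it. Without wrt-4 the ratio was 0.479, and differences between families were not tested. The no_CHX samples were close to each other, and on CHX replicate 1 was well above replicates 2 and 3. Of 3 tested members, wrt-4 and wrt-6, both with a Hog domain, were called lower.

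The level of wrt-4 (WBGene00006950; chromosome X, 15752258 to 15757269, 10 exons) was 91.4, 25.9 and 43.3 CPM in CHX samples, against 220, 254 and 240 CPM in no_CHX samples. Every no_CHX sample was far above the highest CHX sample. It fell 4.44-fold (adjusted p = 6.53e-06) at a log2 fold change of -2.15 (SE 0.31), and without CHX replicate 1 the log2 fold change was -2.75 (adjusted p = 8.49e-07).

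For wrt-6 (WBGene00006952; chromosome X, 3480251 to 3483649, 10 exons) the values were 57.5, 33.7 and 28.9 CPM on CHX, against 111, 135 and 131 CPM without it. The groups did not overlap, and CHX replicate 1 was again the highest of its group. It fell 3.14-fold, with an adjusted p = 6.46e-04 and a log2 fold change of -1.65 (SE 0.35). The third tested member, wrt-9 on chromosome X, had 44.4, 20.7 and 36.1 CPM on CHX and 82.0, 55.1 and 31.8 CPM without it. Its groups overlapped and it had no call (log2 fold change -0.74, SE 0.46, adjusted p = 0.246), with -0.37 without no_CHX replicate 1 and -1.03 without no_CHX replicate 3.

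Another 10 members had 10 or more counts but were not tested. Their ratios of summed counts, scaled to library size, ran from 0.362 to 1.97, 7 of them below and 3 above 1. The counting interval lay below 1 for 1 of them and above 1 for 0. Neither split was computed over all genes of like depth, so these tallies have no background beside them. The gene with its interval below 1 was wrt-5, which is needed in the embryo. It had 5, 8 and 2 counts on CHX, against 14, 9 and 9 without it (ratio 0.362, exact 95% counting interval 0.182 to 0.688). In each CHX sample its count was below that of each no_CHX sample. Without a filter it was fitted and not called.

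The largest ratio was that of grd-3, with 2, 16 and 10 counts on CHX and 4, 4 and 3 without it (ratio 1.97, interval 0.948 to 4.37). Here CHX replicate 2 was highest and CHX replicate 1 lowest, and the groups overlapped. For grd-1, a Hog-domain gene, there were 27 counts on CHX and 33 without it (ratio 0.632, interval 0.365 to 1.08). The seam cell marker grd-10 had 11 and 7 counts, and wrt-10 had 10 and 5, on CHX and without it. For wrt-1 the sums were 14 and 15, for wrt-2 17 and 19, for grl-10 11 and 15, for grl-15 13 and 12 and for grl-22 14 and 13, on CHX and without it. Scaled to library size, their ratios were 0.721, 0.691, 0.566, 0.836 and 0.831, in that order. The counting intervals of grd-3, grd-1 and the genes named after them all included a ratio of 1.

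**Figure D3:**
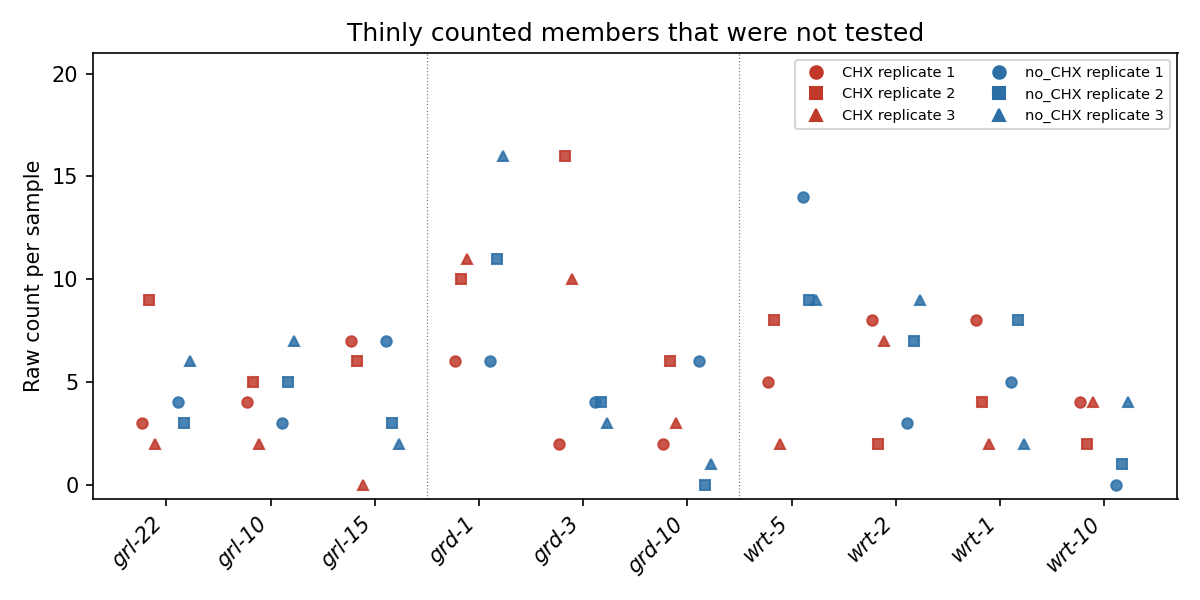
Raw counts per sample of the 10 members with 10 or more counts that were not tested, CHX in red left of no_CHX in blue. Counts run from 0 to 16, and in wrt-5 the CHX samples (2 to 8) lie below the no_CHX samples (9 to 14).

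The remaining counted members had 1 to 9 counts each. They were grl-1, grl-2, grl-12, grl-13, grl-17, grl-18, grd-11, grd-12, grd-13, grd-16, hog-1, wrt-3 and wrt-8. In worms, grl-2 marks the excretory duct and pore and grl-18 marks glia. They had 3 and 0 counts on CHX and 6 and 4 without it. The counts of grd-12 were 0 on CHX and 6 without it, in no_CHX replicates 2 and 3, and another gene lies over 152 of its coding bases on the opposite strand. hog-1 had 3 counts on CHX, all in replicate 2, and 5 without it, all in replicate 1.

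Per kilobase of coding sequence, the scale on which genes can be compared, grl-16 led in both groups at 732 ± 81.6 CPM on CHX and 1609 ± 209 CPM without it (SD, n = 3). It was followed in no_CHX samples by grd-5 (787 ± 61.6), grl-4 (773 ± 348) and grd-14 (576 ± 170 CPM per kilobase). The lowest no_CHX sample of grl-16 lay above the highest of grd-5, while grd-5 and grl-4, and grl-4 and grd-14, overlapped. A second gap followed, with grd-6 at 177 ± 50.5 CPM per kilobase. Below grd-6, each of the remaining genes overlapped its neighbour in the order of 22 members with 10 or more counts and an annotated length.

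On CHX the leading 4 genes were again these, with grl-4 (347 ± 83.9 CPM per kilobase) before grd-5 (322 ± 24.8), a pair whose samples overlapped. Lower in the order, grl-27 held place 6 without CHX, at 150 ± 27.1 CPM per kilobase, and place 17 on CHX, at 12.02 ± 5.56. By contrast grl-21 held place 5 on CHX, at 104 ± 59.8 CPM per kilobase, and place 12 without it, at 43.6 ± 19.5. With few counts behind it, grd-3 held place 8 on CHX, at 43.4 ± 33.4 CPM per kilobase, and place 17 without it, at 22.1 ± 2.35. The warthog gene wrt-4 stood at place 10 on CHX and place 7 without it.

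**Figure D4:**
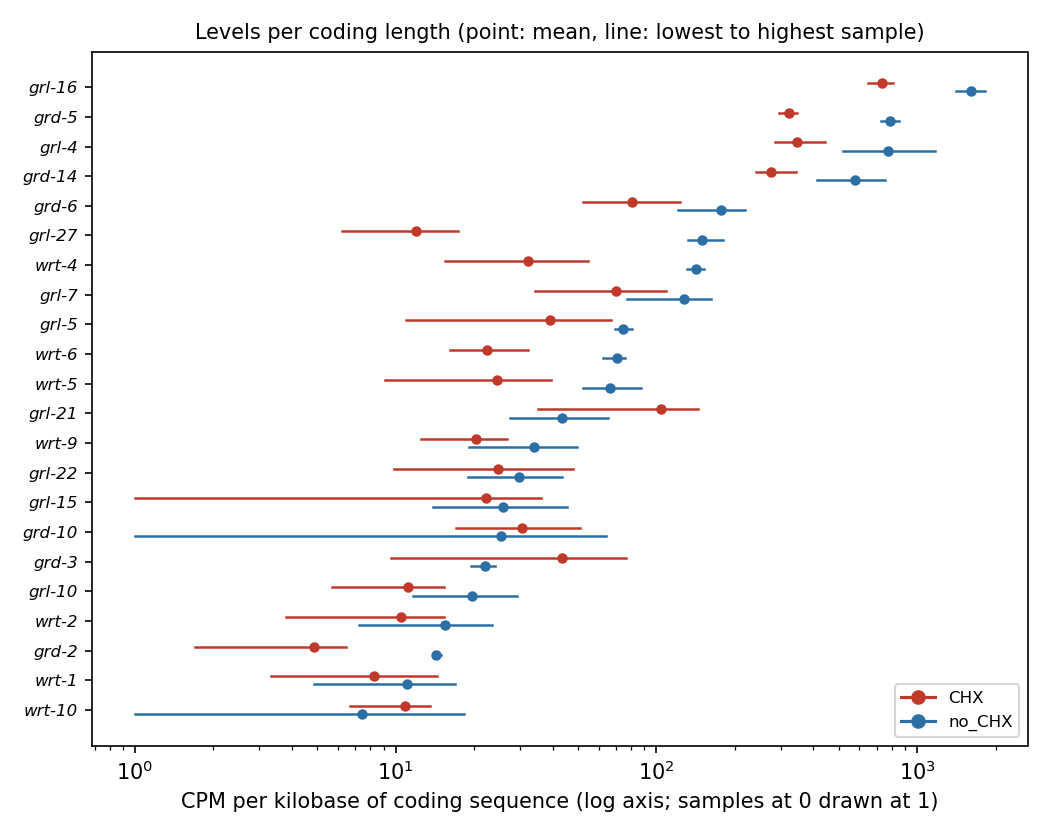
CPM per kilobase of coding sequence (log axis) of 22 members, ordered by the no_CHX mean, with CHX in red above no_CHX in blue, points for means and lines from the lowest to the highest sample. The 4 leading genes lie apart from the rest in both groups, and grl-27, grd-3 and grl-21 differ in place between the groups by more than 5.

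On the chromosomes, 28 of the 58 members (48.3%) lie on V, which holds 24.7% of all genes in the table. Neighbouring members did not always have like levels. On X, grd-14 with 152 counts on CHX and 245 without it lies 207 bases from grd-4 (8501245 to 8502289), which was at 0 in every sample. On IV, grd-13, grd-3 and grd-10 follow each other on the same strand between 3438312 and 3441770. Their counts were 5, 28 and 11 on CHX and 2, 11 and 7 without it, each more on CHX in raw counts, though all of their counting intervals include 1. A run of 4 genes on V, grl-28, grl-29, grl-30 and grl-31 (3551346 to 3557778), was at 0 throughout, and grl-27, further along the same chromosome, was not. On II, wrt-1 and wrt-10 are separated by 53 bases, with 14 and 10 counts on CHX and 15 and 5 without it. In the annotation no other gene covers coding bases of a tested member.

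Samples of a group differed among themselves, and not in the same way for all members. In CHX replicate 1, 10 of the 13 tested members lay above their CHX mean on the log2 scale, against 3 in replicate 2 and 8 in replicate 3. The median deviations were 0.39, -0.17 and 0.13. Over all tested genes they lay between 0.00 and 0.01. All 3 tested warthog genes, grl-5 and grl-7 were highest in CHX replicate 1. By contrast grl-16, grl-4, grd-5, grd-6 and grd-14 were highest in CHX replicate 3. Without CHX, grl-4, grd-6 and grd-14 were highest in replicate 1 and lowest in replicate 3.

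Genes for membrane proteins of the pathway moved in both directions. Of 31 patched, patched-related and related transport genes in the table, 16 were tested, 7 of them lower and 2 higher on CHX. Their median log2 fold change was -0.83, against 0.02 for all tested genes. Without CHX replicate 2 the number lower was 4 and without CHX replicate 3 it was 3, and without no_CHX replicate 2 the number higher was 1. The patched gene ptc-1, needed for cytokinesis in the germline, rose to 700 ± 26.9 CPM on CHX, against 297 ± 84.5 CPM without it (log2 fold change 1.24, SE 0.19, adjusted p = 9.14e-06). The other patched gene with counts, ptc-3, fell to 164 ± 40.5 CPM on CHX, against 298 ± 22.8 CPM (log2 fold change -0.86, adjusted p = 0.00377).

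Expression of ptr-18, whose product has been linked to clearance of GRL-7, fell to 124 ± 24.9 CPM on CHX, against 326 ± 58.5 CPM without it (log2 fold change -1.40, SE 0.22, adjusted p = 2.56e-05). For ptr-23 the values were 66.1 ± 23.8 and 153 ± 31.5 CPM (adjusted p = 0.00493). Counts of ptc-2 and ptr-9 were 0 in every sample. Summed over the list, levels were 1765 to 1956 CPM on CHX and 1980 to 2173 CPM without it.

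Beyond receptors, 7 genes related to other parts of the pathway were tested, 1 lower and 0 higher, with a median of -0.05. The lower one was lrp-1, a megalin-type endocytic receptor of the epidermis needed for molting, at 503 ± 80.2 CPM on CHX and 810 ± 270 CPM without it (adjusted p = 0.00692), a call lost without CHX replicate 3 or no_CHX replicate 2. Quahog (qua-1), the remaining hedgehog-related gene, lies outside the naming rule, and its level was 69.2 ± 27.9 CPM on CHX and 101 ± 32.8 CPM without it (adjusted p = 0.246). The kinase gene kin-19 was at 386 ± 11.9 and 471 ± 91.2 CPM without a call.

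Genes of the molting cycle were measured beside the members because many members follow it. Of 13 tested molting effectors 5 were lower and 0 higher on CHX (median -0.66), and 3 were lower with DESeq2 or without CHX replicate 2, CHX replicate 3 or no_CHX replicate 2. The molting gene mlt-10 fell to 182 ± 93.9 CPM on CHX, against 380 ± 62.9 CPM, and mlt-8 to 81.6 ± 33.3 CPM, against 240 ± 87.4 CPM. The kinase gene nekl-2 stood at 35.6 ± 23.7 and 139 ± 47.7 CPM (adjusted p = 4.33e-04) and ptr-4 at 36.7 ± 24.8 and 91.03 ± 43.6 CPM (adjusted p = 0.0241). The abundant mlt-11 was at 211 ± 61.5 and 220 ± 49.5 CPM without a call. Summed, the 26 effectors stood at 1632, 894 and 1073 CPM in CHX samples, against 1960, 2297 and 1792 CPM in no_CHX samples. Like the warthog sum, this sum was highest in replicate 1 among CHX samples. The ground-like and groundhog sums were instead highest in CHX replicate 3.

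Of 5 tested regulators of molting and developmental timing, 1 rose and 1 fell (median 0.17). The timing gene lin-41 rose to 368 ± 48.1 CPM on CHX, against 120 ± 4.02 CPM (adjusted p = 1.48e-06), and the period-related gene lin-42 fell to 251 ± 90.5 CPM, against 490 ± 165 CPM (adjusted p = 0.00214). The number lower was 2 without no_CHX replicate 1, with the looser filter and with none. The part of the molting cycle in the members' fall was not tested.

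**Figure D5:**
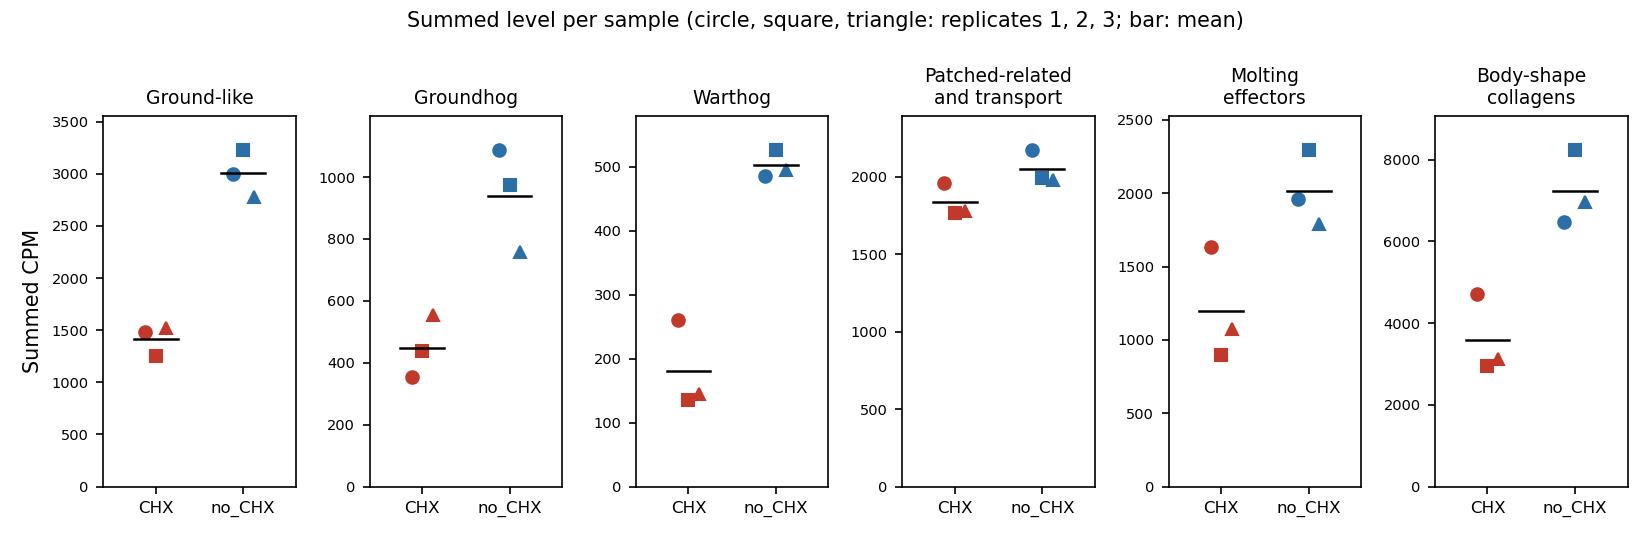
Summed CPM per sample of the 3 families, the patched-related and transport list, the molting effectors and the body-shape collagens, CHX in red left of no_CHX in blue, with bars at means. In each panel the CHX samples lie below the no_CHX samples, and in the warthog, patched-related, molting and collagen panels CHX replicate 1 lies above the other CHX samples. In the ground-like and groundhog panels CHX replicate 3 is the highest of its group.

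Markers of the epidermis, where many members are expressed, and of some other tissues in a whole animal, also differed. Of 10 tested epidermal genes other than collagens, 4 were lower and 1 higher (median log2 fold change -0.77, summed level 2564 to 2802 CPM on CHX and 4504 to 5458 CPM without it). Those lower included the attachment genes let-805 (log2 fold change -1.07), mup-4 (-1.10) and vab-10 (-0.80), while lin-26, a regulator of epidermis and glia, was at 60.5 ± 10.2 CPM on CHX and 19.8 ± 1.42 CPM without it, a call lost without CHX replicate 3. Of 13 body-shape collagens 10 were lower (median -0.95), among them dpy-4, dpy-13, dpy-5 and bli-6 (log2 fold changes -0.92 to -1.27), and 6 without CHX replicate 3 or no_CHX replicate 2. The collagens summed to 4711, 2950 and 3130 CPM on CHX, against 6461, 8241 and 6953 CPM.

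Few markers of smaller tissues were counted well. Of 9 seam cell genes 1 was tested, apl-1, without a call (log2 fold change -0.41, adjusted p = 0.11), and nhr-73 was at 0. Without no_CHX replicate 1 the number of seam cell genes lower was 1, and without a filter the number higher was 1. The list summed to 327 to 378 CPM on CHX and 390 to 548 CPM without it. For glia, with summed levels of 127 to 165 and 65.6 to 144 CPM, 2 of 10 genes were tested, lin-26 again and fig-1 (adjusted p = 0.39, median of the pair 0.50), and mls-2, hlh-17 and ttx-1 were at 0. Of 3 tested excretory genes 0 were called (median 0.42, 232 to 327 CPM on CHX, 209 to 272 CPM without it), with aqp-8 at 51.5 ± 7.66 and 30.4 ± 9.07 CPM and vha-5 at 101 ± 27.7 and 116 ± 30.5 CPM.

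Several larger tissues differed as well. Oocyte and germline genes were higher in 17 of 20 cases and lower in 1 (median 1.39), at 16202 to 17612 CPM on CHX and 6915 to 8281 CPM without it, with cpg-1 at 2749 ± 113 and 795 ± 78.8 CPM. Body wall muscle genes were lower in 12 of 13 (median -0.62, 9263 to 9821 CPM, against 12489 to 17407 CPM), with myo-3 at 293 ± 56.8 and 680 ± 132 CPM. The muscle count was 5 without CHX replicate 3 or with library totals, 6 without no_CHX replicate 2, and 7 without CHX replicate 2 or without a filter. Sperm genes were lower in 5 of 8 (median -1.23, 441 to 601 CPM, against 1075 to 1216 CPM). Intestinal genes were lower in 6 and higher in 1 of 9 (median -0.61, 9145 to 13605 CPM, against 14126 to 15388 CPM). Of 4 tested pharyngeal genes 1 was lower, abu-14, and 2 without CHX replicate 2 (median -0.79, 568 to 648 CPM for the list, against 863 to 1236 CPM). Of 4 neuronal genes 0 were called (median -0.19, 289 to 371 CPM, against 322 to 446 CPM). The part of any of these tissues in the members' fall was not tested.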

How the data were processed

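Sample titles gave the groups and replicate numbers. The deposited values are raw counts made by the authors for the coding sequence of 1 transcript per gene. Row names carry WBcel235 positions, per the file headers. Trizol extraction, RNase H depletion of ribosomal RNA and a SMARTER library kit are stated per the labels' protocols. DESeq2 is named without a version, per the submitters' processing notes. Aligner, counter and use of strand: not given in the sources used here, so reads of antisense partners or close copies cannot be told apart. Without molecular identifiers, counting intervals cover counting error only.

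All 5641 tested genes were fitted together with edgeR 4.0.16 in R 4.3.3, using filterByExpr (minimum count 10, minimum total 15), TMM factors and robust quasi-likelihood tests. SE is the absolute log2 fold change over the square root of F. The test was also run on simulated counts that gave every gene the same biological coefficient of variation. That run does not measure its error rate in these data. Alternatives used DESeq2 1.42.0, limma-voom (limma 3.58.1), other factors and filters, a replicate block and each sample left out. The Ensembl annotation of WBcel235 supplied exon numbers and coding lengths, which 57 of the 58 members have. The common biological coefficient of variation was 19.0%. Figures were drawn with matplotlib 3.10.9.

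The members and gene lists were chosen with earlier results of these data known. Tested members are given by their values in every sample, untested ones with 10 or more counts by their counts and the rest by name. From each list, up to 4 called genes of lowest p and the 2 highest in level could be named; fewer are given for the other tissues. ptr-24, qua-1 and the genes at 0 were named outside that rule.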

Additional observations from a re-analysis of the deposited data

How the results depend on the processing

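The 8 members called lower kept their direction and call in each of 15 alternatives (14 for grl-27, which the stricter filter removed). The number of members lower ran from 7 with the stricter filter to 9, the added gene being grl-7, and with a replicate block it was 9. Members higher numbered 0, but 1 without CHX replicate 2 (0 to 1 over left-out samples, the 1 being the ground-like gene grl-21). Over all tested genes, higher calls numbered 579, and 383 (without CHX replicate 3) to 544 with a sample left out. With library totals alone 851 genes were higher and 605 lower, against 579 and 840, and the median of all genes was 0.18, against 0.02; 8 members were again lower. With a replicate block 494 genes were higher and 731 lower. Same-numbered samples did not deviate together (r -0.05, -0.03 and -0.01 across genes, which are not independent replicates). With counting noise at this depth, such values cannot show whether samples were handled in pairs, and the labels do not say. Depth limits what can be said of the 45 members that were not tested.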
